A study of Homo sapiens with 6 samples.

Results

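The genes described here are the WNT ligands, their Frizzled receptors and the modulators of their signal in A375, an established human melanoma cell line that carries the BRAF V600E mutation. They were the genes whose symbol starts with WNT or FZD and a digit, DKK1 to DKK4, the SFRP genes, and LRP5, LRP6, AXIN1, AXIN2, LEF1, TCF7L1, TCF7L2, CTNNB1, APC, RNF43, ZNRF3 and NKD1. TCF7 was also on the list and was not analysed here. This gave 49 genes of the 18417 tested, each read from 1 probe set that names that gene alone, the brightest where there were several. The members comprised 19 WNT ligands, 10 Frizzled receptors, 2 co-receptors, 8 secreted antagonists, 4 feedback inhibitors, 3 genes of the destruction complex and beta-catenin, and 3 TCF and LEF factors.

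RNA was compared between 3 arrays of cells given 10 µM vemurafenib, an inhibitor of mutant BRAF, for 24 h and 3 arrays of cells given vehicle (0.1% DMSO) for 24 h. All 6 arrays hold the same cell line, grown from separate stocks on separate days within a group. The design text pairs dishes by batch, but the labels do not tie replicate numbers to batches, so the groups were compared without pairing. The values are the authors' log2 levels per probe set. Changes are given as differences of mean log2 level, vemurafenib less vehicle, with limma's moderated SE, and a gene is said to have risen or fallen where its Benjamini-Hochberg adjusted p over all genes passed the threshold of 0.05.

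WNT proteins are secreted, lipid-modified ligands that bind a Frizzled receptor together with a co-receptor, LRP5 or LRP6. In their absence a destruction complex built on AXIN and APC marks beta-catenin, the product of CTNNB1, for degradation. When the ligand binds, beta-catenin accumulates, enters the nucleus and switches on genes together with TCF and LEF factors. Some ligands, WNT5A above all, signal mainly through routes that do not use beta-catenin. In the pigment cell lineage beta-catenin signalling supports MITF and melanocyte development, and WNT5A has been linked to the invasive state of melanoma cells.

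Promoter sequence is shown for DKK1, LEF1 and FZD1, those of the 6 members with the largest changes that have an entry in the RefSeq promoter table, because these genes fell together with vemurafenib. Each run is the 250 bases before the annotated start of the gene, 5′ to 3′ on the gene's own strand, in build GRCh38.p14. DKK1 lies on the plus strand at chr10:52314031-52314280, LEF1 on the minus strand at chr4:108166302-108166551 and FZD1 on the plus strand at chr7:91264183-91264432. Capitals mark matches, on either strand, to the core of the TCF and LEF motif (CTTTGA), the AP-1 motif (TGANTCA), an ETS motif (CCGGAA) or the E-box (CACGTG).
DKK1: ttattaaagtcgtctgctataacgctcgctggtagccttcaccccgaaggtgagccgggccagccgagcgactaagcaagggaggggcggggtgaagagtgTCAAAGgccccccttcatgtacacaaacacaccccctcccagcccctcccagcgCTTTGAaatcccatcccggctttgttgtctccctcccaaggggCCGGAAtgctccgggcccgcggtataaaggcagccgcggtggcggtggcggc
LEF1: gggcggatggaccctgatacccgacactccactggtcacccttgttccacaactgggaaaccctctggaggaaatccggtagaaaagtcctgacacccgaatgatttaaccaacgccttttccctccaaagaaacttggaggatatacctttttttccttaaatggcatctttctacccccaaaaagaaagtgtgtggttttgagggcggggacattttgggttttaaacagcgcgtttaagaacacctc
FZD1: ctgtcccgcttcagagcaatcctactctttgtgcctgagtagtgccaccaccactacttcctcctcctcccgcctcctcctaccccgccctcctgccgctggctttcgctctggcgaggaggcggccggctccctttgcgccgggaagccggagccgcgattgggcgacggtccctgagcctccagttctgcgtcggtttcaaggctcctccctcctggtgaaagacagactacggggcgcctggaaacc
Only the DKK1 window among these held a match, with 2 copies of the TCF and LEF letters and 1 of the ETS letters, none of them overlapping. In the same 250-base window, the TCF and LEF letters occurred in 11.2% of all 35116 promoter windows, the ETS letters in 14.5%, the AP-1 letters in 6.57% and the E-box in 6.34%. The table held 40 windows for 33 of the 49 members. The TCF and LEF letters were found in 1 of these 40 windows, that of DKK1, and the ETS letters in 2, those of DKK1 and AXIN1. The AP-1 letters were found in 1, a window of RNF43, and the E-box in 1, a window of APC. A match describes letters in this window only.

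Across the pathway, vemurafenib was followed by lower levels of the secreted antagonists SFRP1 and DKK1, the nuclear factor LEF1 and the receptors FZD1 and FZD7, and by higher levels of the antagonist-family gene DKK3. Of the 49 members, 4 rose and 15 fell. The members called thus made up 38.8%, against 45.5% of all genes tested. The share that fell was 30.6%, against 22.2% of all genes, and the share that rose was 8.16%, against 23.2%. The median change of the members was -0.13, and that of all genes was -0.045. Changes of at least 2-fold that passed the threshold were seen for 3 members (SFRP1, DKK3 and LEF1), and 5.69% of all genes reached that size. For 13 of the 19 members called, the difference was smaller than 1.5-fold, as it was for 5472 of all 8371 genes called. The ranges of the groups did not overlap for 25 members (51.0%), against 55.4% of all genes, and all 19 called members were among them. Of these 25, 6 were higher with vemurafenib, as were 26.9% of all genes, and 19 were lower, as were 28.5% of all genes. Centring each array on its median over the tested genes, an alternative chosen after seeing the data, changed the split of all called genes to 3682 higher and 5630 lower, against 4281 and 4090, and that of the members to 4 higher and 21 lower. In RNA from whole dishes, a change in the share of cells that express a gene and a change in RNA per cell cannot be told apart.

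**Figure D1:**
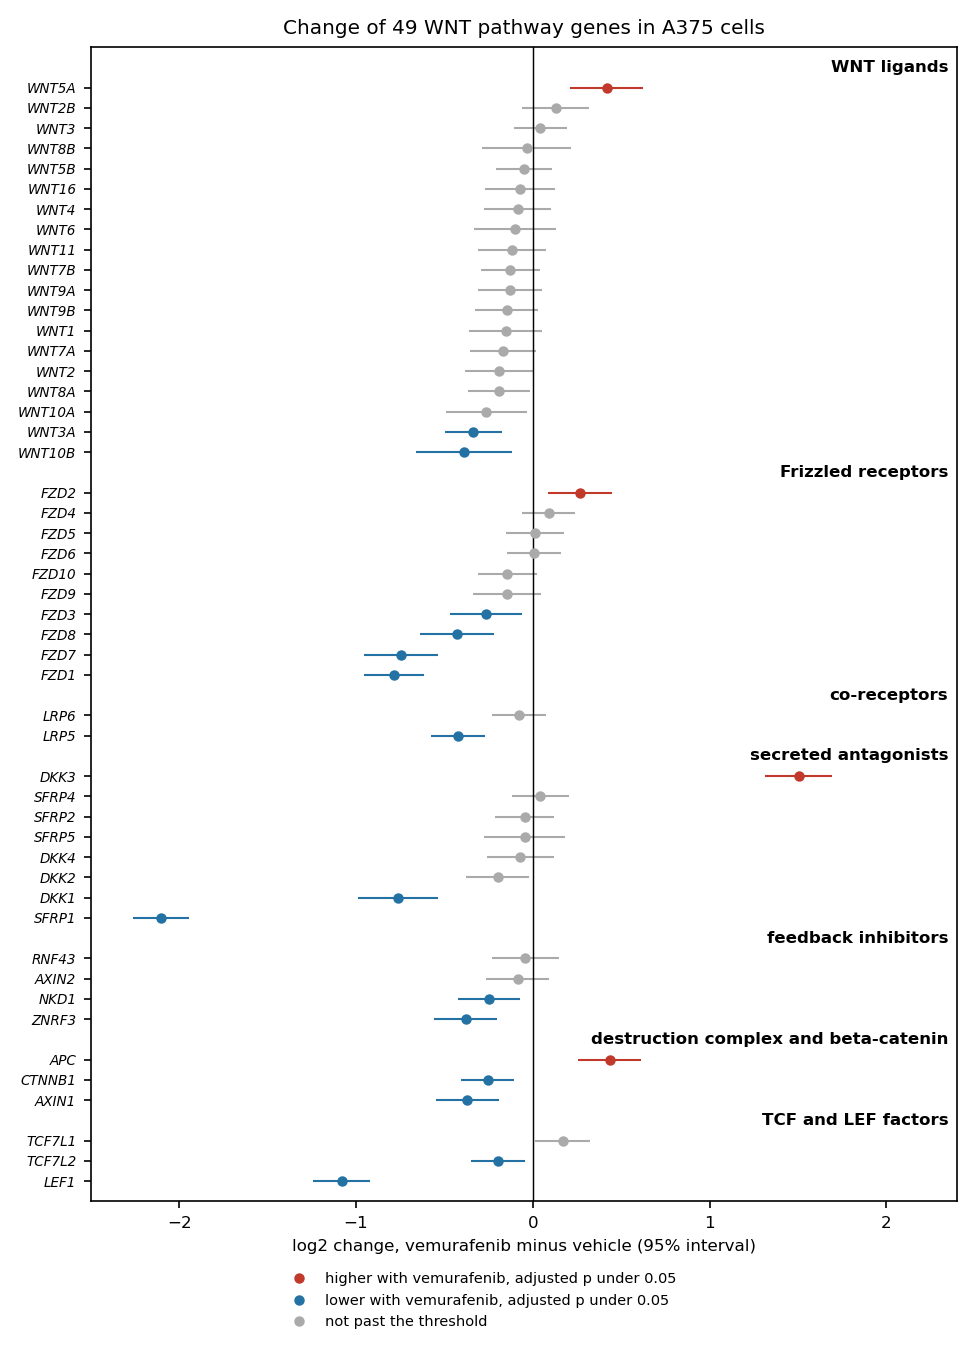
Change of each of the 49 members, vemurafenib minus vehicle, on the log2 scale (x axis), grouped by role down the page. Points are limma estimates and bars their 95% intervals, coloured by whether the adjusted p passed the threshold and in which direction. SFRP1 at -2.10 and DKK3 at 1.50 lie farthest from 0, while most WNT ligands lie close to it.

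Facts of the whole series were as follows. The array medians ran from 7.69 to 7.73. The 5 genes taken as a check of ERK pathway output (DUSP6, ETV4, ETV5, SPRY2 and SPRY4) all fell, with changes of -4.21 to -3.75. Of 7 measured melanoma cell markers, MITF, SOX10, S100B and S100A1 were above the level of olfactory receptor genes defined below in both groups, whereas PMEL, MLANA and TYR, the pigment genes, were not. Of those 7 markers 4 rose and 0 fell, and their mean level ran from 8.53 to 8.64 on vemurafenib arrays and from 8.16 to 8.22 on vehicle arrays. Among markers of other cell types, 1 of 6 keratinocyte genes (DSC3), 2 of 6 fibroblast genes (DCN and LUM) and 1 of 5 leukocyte genes (CD68) rose. PECAM1 and KDR, of 5 endothelial genes, and CD14, a leukocyte gene, fell. Of these genes DCN, PECAM1 and CD14 lay at or below that level in at least 1 group. The part of these genes in the results below was not tested.

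Arrays give some signal without the RNA they are meant to detect, and no detection calls were used. As a yardstick, the 341 olfactory receptor genes, which such cells hardly express, had a median level of 5.50 and a 95th percentile of 7.28 over the 6 arrays. Of these 341 genes 50 passed the threshold, so a call does not by itself show that a gene was expressed. In 13 members at least 1 group mean lay at or below 7.28 and was therefore not shown to be above background. These were WNT2, WNT3A, WNT7B, WNT8A, WNT8B, WNT11, WNT16, DKK2, DKK4, SFRP2, SFRP4, AXIN2 and RNF43. Of these 13, only WNT3A passed the threshold (7.69%, against 45.5% of all genes). Of the other 36 members, 4 rose (11.1%, against 23.2% of all genes) and 14 fell (38.9%, against 22.2% of all genes). These sets are unlike, since all genes include dim ones, which this mark removed from the members. In the fit without the dimmest 25% of genes, a different cut, 3969 of 13812 genes rose and 3802 fell. A level above 7.28 does not by itself show expression, since probe sets differ in background, and levels of different genes were not compared.

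Among the ligands, WNT5A, which acts mainly outside beta-catenin signalling, rose. Its levels were 9.52, 9.17 and 9.40 on the vemurafenib arrays, against 8.99, 8.86 and 8.99 on the vehicle arrays. All vemurafenib arrays lay above all vehicle arrays, by a change of 0.42 (SE 0.09, 1.34-fold, limma adjusted p 0.00346). WNT10B, a ligand of beta-catenin signalling, stood at 7.76, 7.96 and 8.26 with vemurafenib, against 8.27, 8.57 and 8.32 with vehicle. It fell by 0.39 on the log2 scale (SE 0.12, limma adjusted p 0.0223), with vemurafenib replicate 3 next to the lowest vehicle array. That call was lost without vemurafenib replicate 1 (limma adjusted p 0.0942), vemurafenib replicate 2 (0.0614) or vehicle replicate 2 (0.0938), within a range over the alternatives of 0.00254 to 0.0942. WNT3A, a ligand widely used to switch on beta-catenin signalling, was at 7.17, 7.18 and 7.33 with vemurafenib, against 7.53, 7.61 and 7.54 with vehicle. It fell by 0.34 on the log2 scale (SE 0.07, limma adjusted p 0.00310), but its vemurafenib mean of 7.23 was not shown to be above background.

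The remaining 16 ligands did not pass the threshold, and their changes ran from -0.26 (WNT10A) to 0.13 (WNT2B). Of these, 14 had a negative change, as had 10474 of all 18417 genes. The share of all 19 ligands called was 15.8%, against 45.5% of all genes. WNT10A missed the threshold (limma adjusted p 0.0581) and stood at 8.01, 7.86 and 7.97 with vemurafenib, against 8.19, 8.44 and 8.004 with vehicle, so its groups overlapped. WNT8A had a change of -0.19 with an adjusted p in limma of 0.0693, from levels below the olfactory receptor mark in both groups. The intervals of these 16 changes bound what these arrays could show: the widest, that of WNT8B, ran from -0.29 to 0.22. WNT5B, the closest relative of WNT5A, had a change of -0.050, with a 95% interval from -0.21 to 0.11, beside 0.21 to 0.63 for WNT5A, and the difference between the 2 genes was not tested.

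Several ligand genes sit next to each other in the genome. In the RefSeq gene table WNT10B and WNT1 on chromosome 12, WNT3 and WNT9B on chromosome 17, and WNT6 and WNT10A on chromosome 2 are pairs with 0 protein-coding genes between them. WNT9A and WNT3A on chromosome 1 have 1 between them. In these pairs the changes were -0.39 for WNT10B beside -0.15 for WNT1, 0.043 for WNT3 beside -0.15 for WNT9B, -0.099 for WNT6 beside -0.26 for WNT10A, and -0.13 for WNT9A beside -0.34 for WNT3A. In no pair did both genes pass the threshold, and differences within pairs were not tested.

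The Frizzled receptors, which span the membrane and bind WNT through a cysteine-rich domain outside the cell, included 4 of 10 that fell, 1 that rose and 5 that did not pass. That is 50% called, against 45.5% of all genes, with 40% lower, against 22.2%, and 10% higher, against 23.2%. FZD1, FZD2 and FZD7 form the subfamily whose proteins are most alike. FZD1 was at 8.42, 8.39 and 8.54 with vemurafenib, against 9.33, 9.21 and 9.17 with vehicle. The 2 groups lay well apart, and FZD1 fell by 0.78 on the log2 scale (SE 0.08, 1.72-fold, limma adjusted p 7.27e-06). FZD7, a receptor often high in tumours and stem cells, was at 8.07, 7.84 and 8.10 with vemurafenib, against 8.90, 8.62 and 8.75 with vehicle. It fell by 0.75 on the log2 scale (SE 0.10, 1.68-fold, limma adjusted p 5.95e-05), and again the groups did not overlap. FZD2, the third of this subfamily, moved the other way, with 9.71, 9.47 and 9.64 on the vemurafenib arrays, against 9.43, 9.30 and 9.29 on the vehicle arrays. Its rise of 0.27 (SE 0.08, limma adjusted p 0.0209) left only a narrow gap between the groups. The call was lost without vemurafenib replicate 1 (limma adjusted p 0.0934), vemurafenib replicate 3 (0.0526), vehicle replicate 2 (0.0550) or vehicle replicate 3 (0.0706), within a range of 0.00852 to 0.0934. Its 95% interval, 0.085 to 0.45, lay on the other side of 0 from those of FZD1 (-0.95 to -0.62) and FZD7 (-0.96 to -0.54). Differences between these genes were not tested.

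In the subfamily of FZD5 and FZD8, FZD8 had levels of 9.29, 9.20 and 9.53 with vemurafenib, against 9.72, 9.88 and 9.72 with vehicle. It fell by 0.43 on the log2 scale (SE 0.09, limma adjusted p 0.00294), with no overlap. FZD5 had a mean of 8.22 ± 0.06 with vemurafenib and 8.21 ± 0.08 with vehicle (SD, n = 3 each), and the interval of its change was -0.15 to 0.17. In the subfamily of FZD3 and FZD6, receptors with roles in planar cell polarity, FZD3 stood at 8.15, 8.20 and 8.10 with vemurafenib, against 8.50, 8.21 and 8.54 with vehicle. The lowest vehicle array, replicate 2, almost touched the highest vemurafenib array. FZD3 fell by 0.27 on the log2 scale (SE 0.09, limma adjusted p 0.0345), and the call was lost without vemurafenib replicate 1 (limma adjusted p 0.0806), vemurafenib replicate 3 (0.0848), vehicle replicate 1 (0.119) or vehicle replicate 3 (0.130), within a range of 0.00263 to 0.130. FZD6 averaged 10.56 ± 0.06 with vemurafenib and 10.55 ± 0.02 with vehicle (SD, n = 3 each), with an interval of -0.15 to 0.16 for its change. FZD4, FZD9 and FZD10 had changes of 0.090, -0.15 and -0.14 and did not pass.

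**Figure D2:**
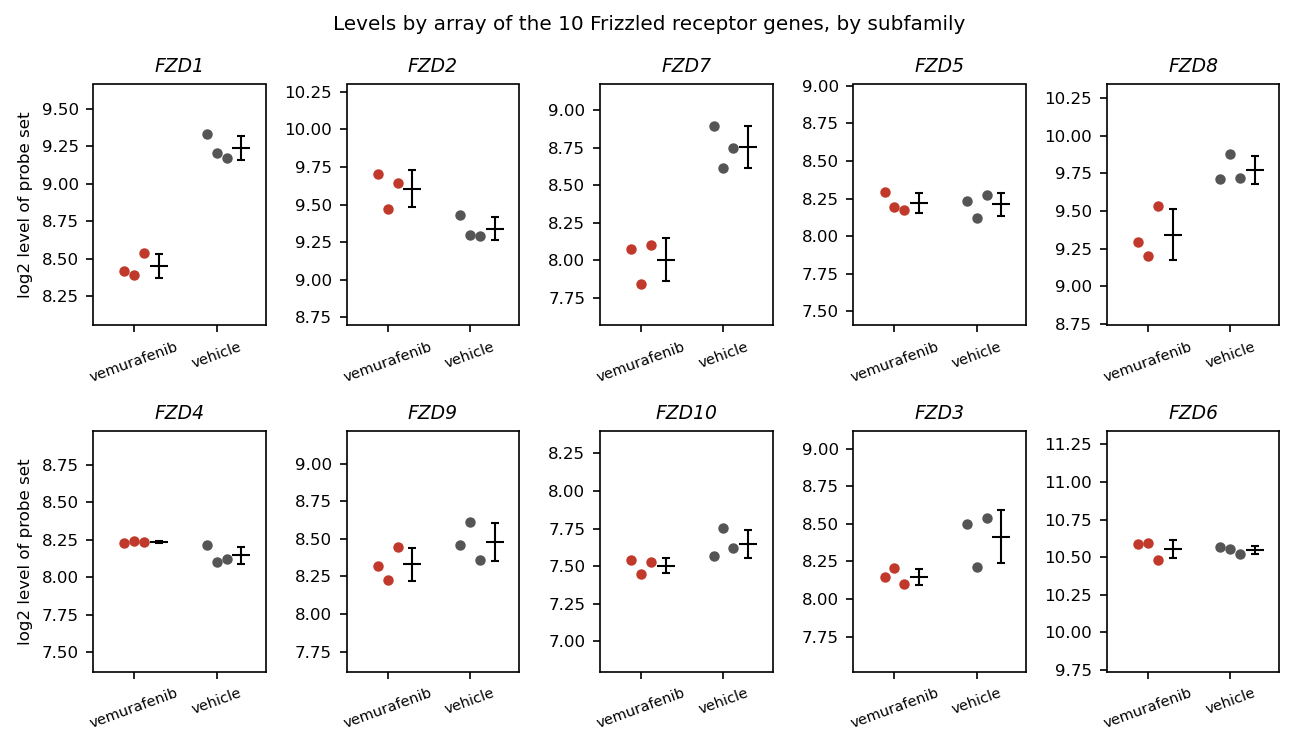
Level of each Frizzled receptor gene on the 3 vemurafenib arrays (left, red) and the 3 vehicle arrays (right, grey), log2 level of its probe set on the y axis, every panel spanning the same range of 1.6. Black bars are mean and SD over 3 arrays. FZD1, FZD7 and FZD8 lie lower with vemurafenib, FZD2 slightly higher, and FZD5 and FZD6 at the same height in both groups.

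Of the 2 co-receptors, LRP5 was at 8.51, 8.46 and 8.45 with vemurafenib, against 8.96, 8.84 and 8.88 with vehicle. The arrays of each group lay close together and the groups apart, and LRP5 fell by 0.42 on the log2 scale (SE 0.07, 1.34-fold, limma adjusted p 0.000431). Its relative LRP6 averaged 10.84 ± 0.03 with vemurafenib and 10.92 ± 0.05 with vehicle (SD, n = 3 each). That change of -0.079, with an interval from -0.23 to 0.073, did not pass.

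Among the 49 members, the changes farthest from 0 were those of the secreted antagonists SFRP1 and DKK3. SFRP1, a decoy that resembles the ligand-binding part of Frizzled, was at 8.90, 8.76 and 8.77 with vemurafenib, against 10.93, 10.93 and 10.88 with vehicle. It was 4.30-fold lower (-2.10, SE 0.07, limma adjusted p 2.80e-09), which placed it 46th from the lowest of all 18417 changes. Arrays within each group differed by far less than the groups did. SFRP2 and SFRP4 were not shown to be above background and SFRP5 had a change of -0.046, and these 3 did not pass.

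DKK1, which blocks LRP5 and LRP6 from outside the cell, was at 12.18, 12.16 and 11.79 with vemurafenib, against 12.84, 12.83 and 12.74 with vehicle. Every vemurafenib array was lower, replicate 3 the most, and DKK1 fell by 0.76 on the log2 scale (SE 0.10, 1.70-fold, limma adjusted p 8.92e-05). DKK1 is also a target gene of beta-catenin in many cells, and its promoter window above is the one with the TCF and LEF letters. A link of either to its fall was not tested. DKK3, a family member that does not act on LRP5 and LRP6 in the way of DKK1, moved the other way. Its brighter probe set, 7946661, was at 10.40, 10.23 and 10.49 with vemurafenib, against 8.76, 8.90 and 8.93 with vehicle. This 2.84-fold rise (1.50, SE 0.09, limma adjusted p 1.18e-07) was the 192nd highest of all changes. A dimmer probe set for DKK3, 7938481, averaged 6.42 ± 0.10 with vemurafenib and 6.25 ± 0.22 with vehicle (SD, n = 3 each) and did not pass when all probe sets were tested (0.17, SE 0.11, limma adjusted p 0.232). Both means of this dimmer probe set lay below the olfactory receptor mark, so a change could not be judged from it. With the 2 probe sets averaged, the dimmer one included, the rise was 0.84 (limma adjusted p 8.47e-06). DKK2 and DKK4, at levels not shown to be above background, did not pass.

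**Figure D3:**
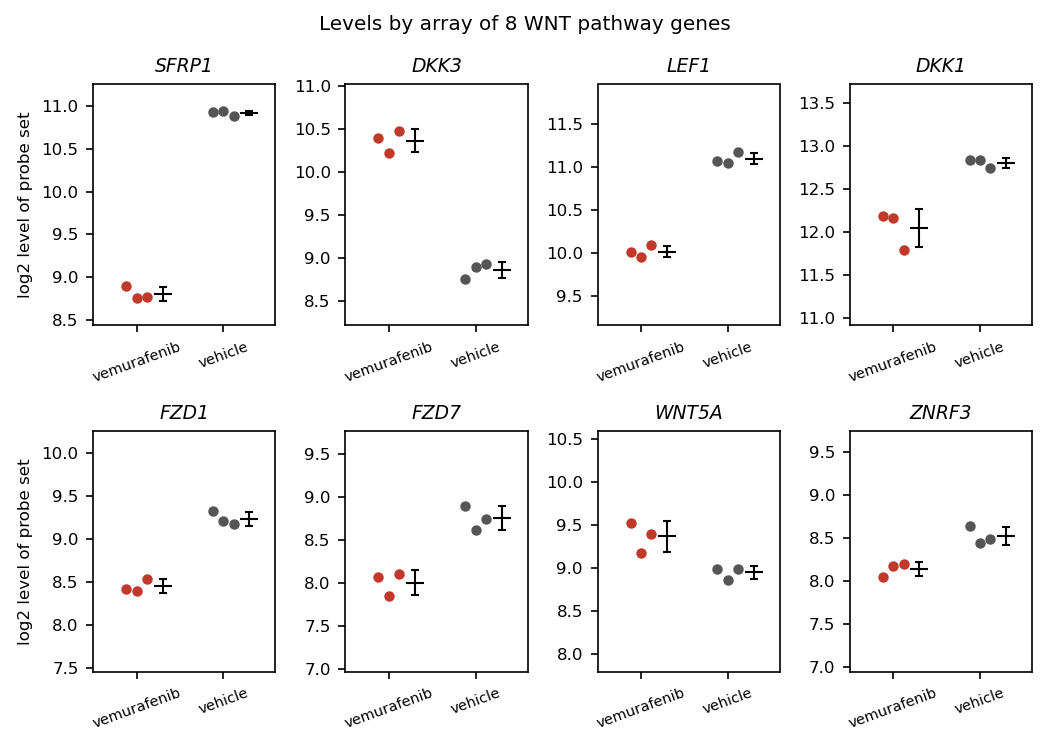
Level of 8 members on the 3 vemurafenib arrays (left, red) and the 3 vehicle arrays (right, grey), log2 level of the probe set on the y axis, every panel spanning the same range of 2.8. Black bars are mean and SD over 3 arrays. In all 8 panels the groups do not overlap, and only DKK3 and WNT5A lie higher with vemurafenib.

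The feedback inhibitors are genes that beta-catenin signalling itself switches on and that restrain it. ZNRF3, a membrane ubiquitin ligase that removes Frizzled from the cell surface, was at 8.05, 8.17 and 8.20 with vemurafenib, against 8.64, 8.44 and 8.49 with vehicle. The groups did not overlap, and ZNRF3 fell by 0.38 on the log2 scale (SE 0.08, limma adjusted p 0.00226). NKD1, which binds the transducer Dishevelled, was at 7.41, 7.23 and 7.35 with vemurafenib, against 7.57, 7.67 and 7.49 with vehicle. It fell by 0.25 on the log2 scale (SE 0.08, limma adjusted p 0.0241), a call lost without vemurafenib replicate 2 (limma adjusted p 0.0916), vehicle replicate 1 (0.0600) or vehicle replicate 2 (0.0718), within a range of 0.00732 to 0.0916. AXIN2, the most widely used reporter of beta-catenin signalling, averaged 7.04 ± 0.04 with vemurafenib and 7.12 ± 0.13 with vehicle (SD, n = 3 each). Its change of -0.086 (limma adjusted p 0.406) did not pass, and both levels lay below the olfactory receptor mark, so a change in AXIN2 could not be judged here. RNF43, the relative of ZNRF3, was likewise below that mark in both groups, with a change of -0.043.

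In the destruction complex, the scaffold genes moved in opposite directions. APC was at 9.46, 9.59 and 9.40 with vemurafenib, against 9.14, 8.96 and 9.05 with vehicle, and rose by 0.44 (SE 0.08, 1.35-fold, limma adjusted p 0.000945). AXIN1 was at 8.34, 8.23 and 8.41 with vemurafenib, against 8.81, 8.67 and 8.62 with vehicle. It fell by 0.37 on the log2 scale (SE 0.08, 1.29-fold, limma adjusted p 0.00280), and in both genes the groups lay apart. CTNNB1, which encodes beta-catenin, was at 12.77, 12.79 and 12.69 with vemurafenib, against 12.99, 13.00 and 13.02 with vehicle. Its fall of 0.25 (SE 0.07, 1.19-fold, limma adjusted p 0.00994) was small and seen on every array. Beta-catenin is controlled mainly through protein breakdown, which arrays do not measure.

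Among the TCF and LEF factors, which carry beta-catenin on DNA, LEF1 was at 10.02, 9.95 and 10.09 with vemurafenib, against 11.07, 11.05 and 11.17 with vehicle. The groups were about a whole log2 unit apart with little spread inside each, and LEF1 was 2.12-fold lower (-1.08, SE 0.07, limma adjusted p 4.20e-07). In melanoma LEF1 and TCF4, the protein of TCF7L2, have been tied to differentiated and dedifferentiated states. TCF7L2 was at 10.68, 10.67 and 10.75 with vemurafenib, against 10.83, 10.92 and 10.94 with vehicle, and fell by 0.20 on the log2 scale (SE 0.07, limma adjusted p 0.0386). That call was lost after renewed quantile normalization (limma adjusted p 0.116) and in 5 of the fits that left out an array. These were the fits without vemurafenib replicate 1 (limma adjusted p 0.113) or 2 (0.0976) and those without vehicle replicate 1 (0.0528), 2 (0.0710) or 3 (0.123), and over all alternatives the range was 0.0105 to 0.123. TCF7L1, which acts mostly as a repressor, had a change of 0.17 (limma adjusted p 0.0741) with groups that did not overlap.

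Other genes of the pathway were read from a list of 58, of which 55 were measured. Of these 17 rose (30.9%, against 23.2% of all genes) and 9 fell (16.4%, against 22.2% of all genes), with a median change of 0.053. The 2 farthest risers were receptors for R-spondins, the secreted proteins that amplify WNT signalling by drawing ZNRF3 and RNF43 off the membrane. LGR5, also a stem cell marker, was at 9.03, 8.65 and 8.60 with vemurafenib, against 6.48, 6.47 and 6.32 with vehicle. It rose by 2.34 (SE 0.11, limma adjusted p 2.61e-08) from a level not shown to be above background. LGR4 was at 10.79, 10.87 and 10.58 with vemurafenib, against 8.92, 8.67 and 8.88 with vehicle, a 3.79-fold rise (1.92, SE 0.10, limma adjusted p 4.33e-08). The groups of both receptors lay far apart. LGR6, the last of the family, named after its value was seen, is counted among the 17, but both its group means lay below the olfactory receptor mark, so a change could not be judged here. APCDD1, also named after its value was seen, is counted among the 9 fallers, but its vemurafenib mean was not shown to be above background.

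ROR1, a receptor tyrosine kinase that binds WNT5A, was at 7.51, 7.54 and 7.59 with vemurafenib, against 9.54, 9.30 and 9.58 with vehicle, a change of -1.93. Its relative ROR2 had a change of -0.012 at a level not shown to be above background, and RYK, another WNT receptor kinase, fell by 0.26 on the log2 scale (limma adjusted p 0.0155). CBY1, a beta-catenin antagonist, rose by 0.93, and TLE4, a corepressor of TCF factors, fell by 0.80 on the log2 scale. The vehicle levels of CBY1 were 7.38, 7.13 and 7.41, with a mean only just above the olfactory receptor mark. KREMEN1, a receptor for DKK1, rose by 0.74, and WLS, which carries WNT proteins to the cell surface, had a change of -0.14 that did not pass. PORCN was not analysed here. Without vemurafenib replicate 1 the risers on this list numbered 11, and after centring on the tested genes the fallers numbered 16.

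Of 22 genes of planar polarity, which orients cells, or of other WNT routes that do not use beta-catenin, 9 rose and 1 fell. This mixed list is called planar polarity genes for short. The share that rose was 40.9%, against 23.2% of all genes, and the share that fell was 4.55%, against 22.2%. The median change was 0.20, against -0.045 for all genes. All 3 CELSR genes, atypical cadherins of planar polarity, rose: CELSR2 by 1.01, CELSR3 by 0.57 and CELSR1 by 0.46. PRICKLE2, a cytoplasmic partner of the VANGL proteins, rose by 1.03, and DAAM1, a formin that links Dishevelled to actin, by 0.76. The vehicle levels of PRICKLE2 were 7.05, 7.44 and 7.35, with a mean only just above the olfactory receptor mark. CAMK2D, a calcium-dependent kinase, rose by 0.53. VANGL1 was the only one called lower (-0.21, limma adjusted p 0.0454), while VANGL2 rose by 0.44. VANGL1 and VANGL2 were named after their values were seen. The count of fallers was 0 after centring on all probe sets, 5 after centring on the tested genes, and 0 to 2 when an array was left out (0 without vemurafenib replicate 2 or 3 or vehicle replicate 1 or 3, and 2 without vehicle replicate 2).

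Of 25 genes known as beta-catenin targets in various tissues, 23 were measured, 6 of them members described above. Among the 23, 9 fell (39.1%, against 22.2% of all genes) and 4 rose (17.4%, against 23.2% of all genes), with a median change of -0.14. Outside the members 5 of 17 fell (29.4%) and 4 rose (23.5%), against those same shares of all genes. These 5 included ASCL2, with both group means below the olfactory receptor mark, so a change in it could not be judged here. They also included APCDD1, whose vemurafenib mean was not shown to be above background. ASCL2 and APCDD1 were named after their values were seen. The fallers farthest from 0 were CCND1, the cyclin D1 gene (-2.49), MYC (-1.35) and LEF1. CCND1 and MYC are also driven by the ERK pathway. The risers were LGR5, TNFRSF19, a receptor of the TNF family (0.90, limma adjusted p 2.75e-06), EPHB3, an ephrin receptor (0.89, limma adjusted p 4.68e-06), and MITF (0.75). MITF was named after its value was seen.

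**Figure D4:**
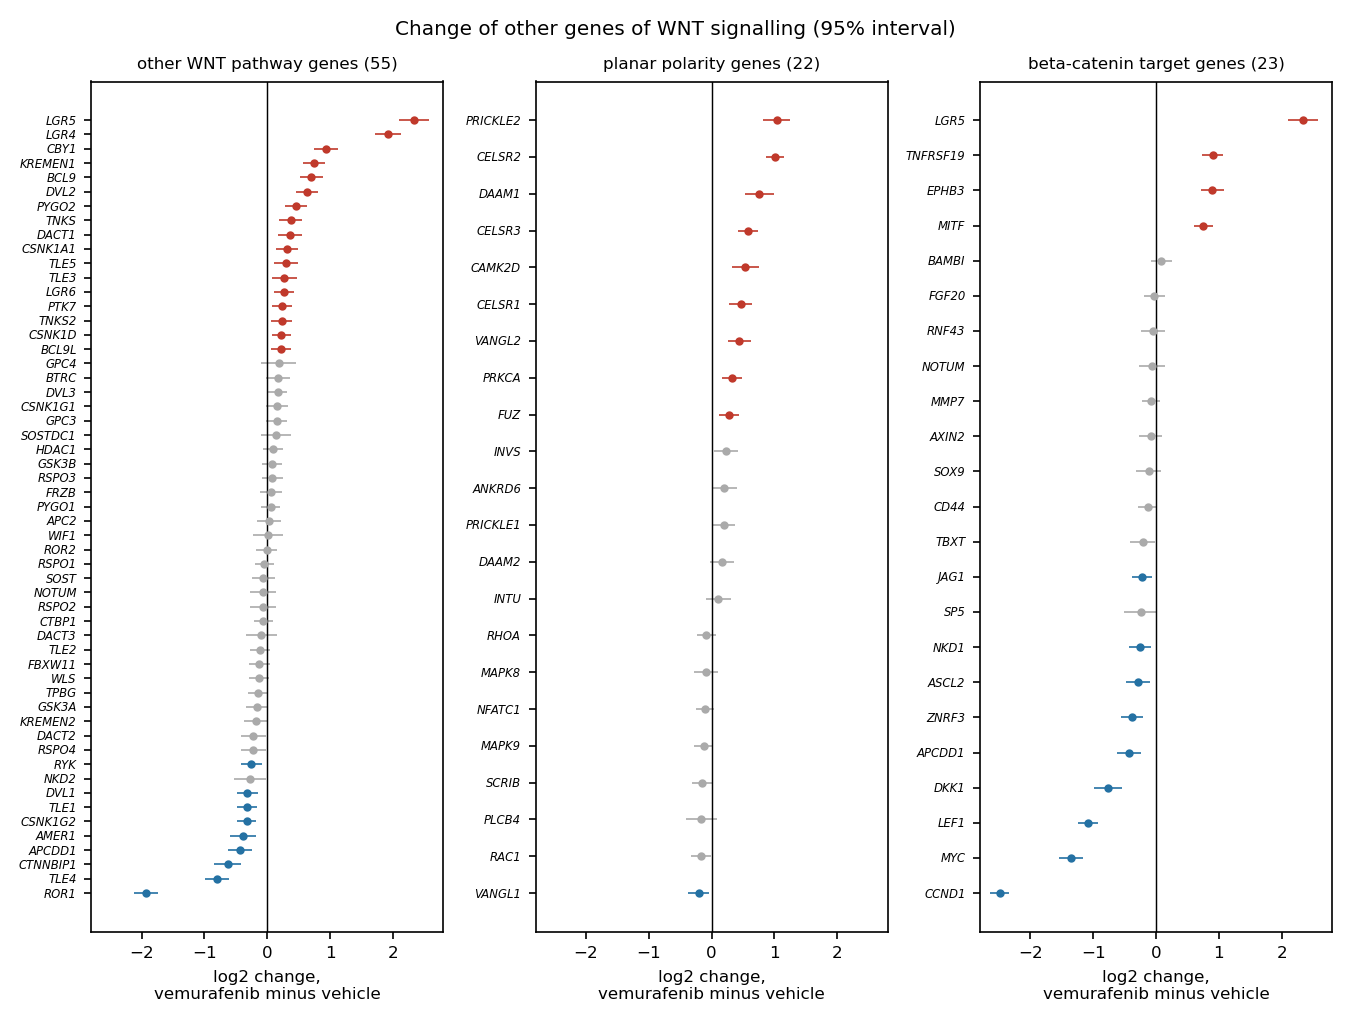
Change of each measured gene of the other WNT pathway genes (left), planar polarity genes (middle) and beta-catenin target genes (right), as log2 level with vemurafenib less that with vehicle, with 95% intervals. Red marks genes that rose, blue genes that fell and grey genes that did not pass the threshold. LGR5 and LGR4 lie at the top of the left panel and ROR1 at its bottom, and the right panel has genes far from 0 on both sides.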

How the data were processed

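RNA of A375 cells was measured on single-colour arrays. The deposited log2 levels per probe set were made with RMA and Partek, per the submitters' processing notes, with no version named. RMA as usually run equalizes the arrays' distributions and compresses large folds. The table held 33297 probe sets, of which 19460 named 1 gene symbol in the platform annotation, 1754 several and 12083 none, with 0 columns of other samples. Where a gene had several probe sets (769 genes) the one with the highest mean was kept, with no filter on dim genes.

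limma 3.58.1 in R 4.3.3 fitted the group alone, with Benjamini-Hochberg adjustment over 18417 genes, 2-sided. Its code was tested on simulated data. The fit was repeated with a replicate block (fixed, then random), with 2 centrings, after quantile normalization, without dim genes (the lowest 25%, then 50%), on averaged probe sets, with an intensity trend and robust eBayes, and without each array. The number of arrays limits the precision, and there is no read depth. Every member could be named. From each other list up to 6 called genes by size were named, with the receptors LGR4, LGR5, ROR1, ROR2 and RYK and the secretion genes PORCN and WLS. Genes named outside this rule are marked as such. The members and lists were chosen with earlier results of these data known. Promoters are from RefSeq, GRCh38.p14. Figures were drawn with matplotlib 3.10.9 under Python 3.11.15.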

Additional observations from a re-analysis of the deposited data

How the results depend on the processing

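Of the 19 members called, 14 stayed past the threshold in the same direction under every alternative that included them. That was 15 alternatives, or 14 for WNT3A and ZNRF3. The exceptions were FZD2, FZD3, NKD1, TCF7L2 and WNT10B, whose values are given above and, for the block, below, and no called member changed sign. The members called numbered 3 to 4 higher and 12 to 17 lower when 1 array was left out, and the median change ran from -0.18 to -0.095. Of the 30 members not called, 6 passed under some alternative. After centring on the tested genes these were DKK2 (limma adjusted p 0.0236), FZD10 (0.0427), WNT2 (0.0393), WNT7A (0.0446), WNT8A (0.0211) and WNT10A (0.0271). WNT10A also passed after centring on all probe sets (limma adjusted p 0.0448), quantile normalization (0.0436), omission of the dimmest 25% of genes (0.0443) or without vehicle replicate 3 (0.0126). DKK2, WNT7A and WNT8A passed without vemurafenib replicate 3 (limma adjusted p 0.0291, 0.0310 and 0.0316), and WNT2 without vehicle replicate 1 (0.0404).

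The sign turned only for members close to 0 that were not called. After centring on the tested genes the changes were -0.051 for FZD5, -0.056 for FZD6, -0.020 for SFRP4 and -0.018 for WNT3, and after quantile normalization -0.031 for FZD5. Leaving out 1 array gave -0.034 to 0.042 for FZD5, -0.014 to 0.041 for FZD6, -0.10 to 0.031 for RNF43, -0.0051 to 0.077 for SFRP4 and -0.14 to 0.062 for SFRP5. It gave -0.17 to 0.0061 for WNT16, -0.18 to 0.010 for WNT6 and -0.11 to 0.10 for WNT8B. The other WNT pathway genes called higher numbered 11 to 16 when 1 array was left out, with 16 called lower after centring on the tested genes. The planar polarity genes called lower numbered 0 to 2 when 1 array was left out, 0 with the replicate block, 0 after centring on all probe sets and 5 after centring on the tested genes. The cause was not tested.

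The design text pairs dishes by batch, but the labels do not tie replicate numbers to batches. The deviations of same-numbered arrays from their group means correlated at 0.14, -0.18 and -0.25 across genes, so the numbers were not taken as pairs. Only the arrays numbered 1 correlated best with each other, while vemurafenib replicate 2 correlated best with vehicle replicate 3 (0.22) and vemurafenib replicate 3 with vehicle replicate 2 (0.28), a hint from the data and not from the labels, on which no fit was built. With the replicate block 4 members rose and 12 fell, against 4 and 15 without it, and 7606 of all genes passed, against 8371. With that block FZD3 (limma adjusted p 0.0617), NKD1 (0.0535) and TCF7L2 (0.0704) missed the threshold, as did TCF7L2 with the number as a random block (0.0526). The log2 changes of these genes were the same with and without the block, and only their SE and adjusted p differed. Since the numbers may not mark the true pairs, these values do not show what a fit on the true pairs would give.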
